A study of Mus musculus with 7 samples.

Results

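The genes encoded in mitochondrial DNA (mt genes) of the mouse prefrontal cortex (PFC) were taken as every gene whose symbol begins with mt-, which gave 37 of the 55416 genes counted. They comprise 13 protein genes, 2 ribosomal RNA (rRNA) genes and 22 transfer RNA (tRNA) genes. Whole PFC tissue was profiled by RNA-seq in female C57BL/6 wild-type mice after stereotaxic injection of an adeno-associated virus (AAV). Ctr mice received the empty AAV (3 libraries), Ref mice an AAV carrying the human long noncoding RNA PAXIP1-AS1 with the C allele (2 libraries), and Alt mice the same RNA with the G allele (2 libraries). All 3 vectors carried an EGFP reporter, and expression was driven by the human synapsin promoter, which is active in neurons, so that the transgene marks only part of the cells in the tissue and the RNA comes from all of them. The comparisons ask how the human RNA, and its allele, go with the expression of mouse genes. The age of the mice and the interval between injection and RNA collection are not given in the sources used here, and the delivered human RNA itself was not analysed here.

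Mitochondrial DNA is a small circle with genes on both strands. Each strand is transcribed into a long precursor, and the tRNAs lying between the other genes are cut out to release the mRNAs and rRNAs. The 13 proteins are core subunits of the respiratory complexes I, III and IV, which pass electrons to oxygen and pump protons, and of complex V, the ATP synthase, while the rRNAs and tRNAs serve their translation inside the organelle. All other subunits are encoded in the nucleus. Neurons depend heavily on this system for firing and synaptic transmission, and mt transcripts are among the most abundant RNAs of brain tissue.

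In the annotation, 12 of the protein genes, both rRNA genes and 14 of the tRNA genes lie on the + strand, and mt-Nd6 and 8 tRNA genes on the opposite one. One stretch of this DNA has a near-identical copy on nuclear chromosome 1, which bears on how the mt counts can be read, and the sequences are therefore shown first. The copy spans chr1:24650616-24655278 on the minus strand as the deposited table lists it, matches chrM:6381-11042, and is annotated as 6 pseudogenes. Over the 3855 bases compared, 3848 were identical. The bases between the pseudogenes, which hold most of mt-Atp8 and mt-Nd4l and of the tRNA genes there, were not compared. Gm28661 matched 681 of 681 bases of mt-Co2, Gm10925 678 of 678 of mt-Atp6, Gm28437 783 of 783 of mt-Co3 and Gm28439 876 of 876 of mt-Nd4. Gm28438 matched 344 of 345 bases of mt-Nd3, with the substitution T3C counted from 1 at the start of mt-Nd3. Gm29216 matched 486 of 492 bases of mt-Co1, and its 6 substitutions all fell at its start. Sequences are from the GENCODE M21 mouse transcripts by gene identifier, 5′ to 3′ on the gene's strand, and capitals mark the bases that differ within a pair.
mt-Co2, chrM:7013-7072: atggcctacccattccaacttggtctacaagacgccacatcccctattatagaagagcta
Gm28661, chr1:24654587-24654646: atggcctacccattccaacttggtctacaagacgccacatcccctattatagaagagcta
mt-Nd3, chrM:9459-9518: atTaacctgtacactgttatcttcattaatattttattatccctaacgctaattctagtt
Gm28438, chr1:24652141-24652200: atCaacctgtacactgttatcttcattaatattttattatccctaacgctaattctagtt
mt-Co1, chrM:6381-6440: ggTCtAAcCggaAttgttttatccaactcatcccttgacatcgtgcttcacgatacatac
Gm29216, chr1:24655219-24655278: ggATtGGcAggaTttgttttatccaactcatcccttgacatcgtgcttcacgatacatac

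A read of mt-Co2, mt-Atp6 or mt-Co3 could thus be placed equally well at either locus. How such reads were treated in counting is not given in the sources used here. A second limit on counting is that some mt genes overlap each other. The last 43 bases of mt-Atp8 are also the first of mt-Atp6, as the capitals show, mt-Nd4l shares 7 bases with mt-Nd4, and mt-Nd5 shares 14 bases with mt-Nd6 on the opposite strand.
mt-Atp8, chrM:7907-7969: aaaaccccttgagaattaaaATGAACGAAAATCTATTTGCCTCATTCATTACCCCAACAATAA
The 4 tRNAs called below in Alt versus Ctr relative to the mt total are shown with the anticodon, the triplet that reads the codon, in capitals. They carry leucine (mt-Tl1), glutamate (mt-Te), tryptophan (mt-Tw) and alanine (mt-Ta).
mt-Tl1, chrM:2676-2750, + strand: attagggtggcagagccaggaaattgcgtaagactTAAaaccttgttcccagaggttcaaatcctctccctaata
mt-Te, chrM:14071-14139, - strand: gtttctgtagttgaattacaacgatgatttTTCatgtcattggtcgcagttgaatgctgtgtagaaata
mt-Tw, chrM:4950-5016, + strand: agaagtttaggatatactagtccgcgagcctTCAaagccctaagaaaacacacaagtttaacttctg
mt-Ta, chrM:5018-5086, - strand: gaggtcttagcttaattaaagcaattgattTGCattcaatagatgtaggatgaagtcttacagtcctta

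The libraries held 16655697 to 20750857 counts each, with the lowest total in Alt replicate 1. Replicates of a group differed by more than counting noise, and none was treated as a second copy of another. The labels do not state that each library came from a separate animal, and p-values measure the spread between these libraries, which may be technical. All 10 neuron markers passed the filter on low counts, as did every astrocyte, microglia, oligodendrocyte and endothelial marker, against 2 of 5 choroid plexus markers, whose sum stayed between 2.56 and 7.21 CPM (counts scaled to a library of fixed size) in all libraries. In tissue RNA, fewer cells of a type and less RNA per cell cannot be told apart.

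The mt genes made up a large and similar part of every library. They took 13.6%, 14.2% and 12.2% of all counts in Ctr, 12.2% and 16.6% in Ref, and 12.7% and 15.9% in Alt. The group means were 13.3% ± 1.02 (SD, n = 3), 14.4% ± 3.12 (SD, n = 2) and 14.3% ± 2.27 (SD, n = 2), and the ranges of all groups overlapped. Each library's share was regressed on a score of 0 for Ctr, 1 for Ref and 2 for Alt, and the slope was tested by an exact two-sided permutation of the 7 libraries over 210 arrangements, which cannot give a p under 0.00476. The mt share had a slope of 0.531 percentage points per step (exact permutation p = 0.552), less than the spread between replicates. The protein genes alone took 10.6% to 14.8% of a library, with a slope of 0.389 (p = 0.652, same exact test). Pairwise, with a smallest possible p of 0.1 for 3 against 2 libraries and 0.333 for 2 against 2, Alt exceeded Ctr by 0.995 points (exact permutation p = 0.5), and Ref exceeded Ctr by 1.06 points (exact permutation p = 0.7).

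**Figure D1:**
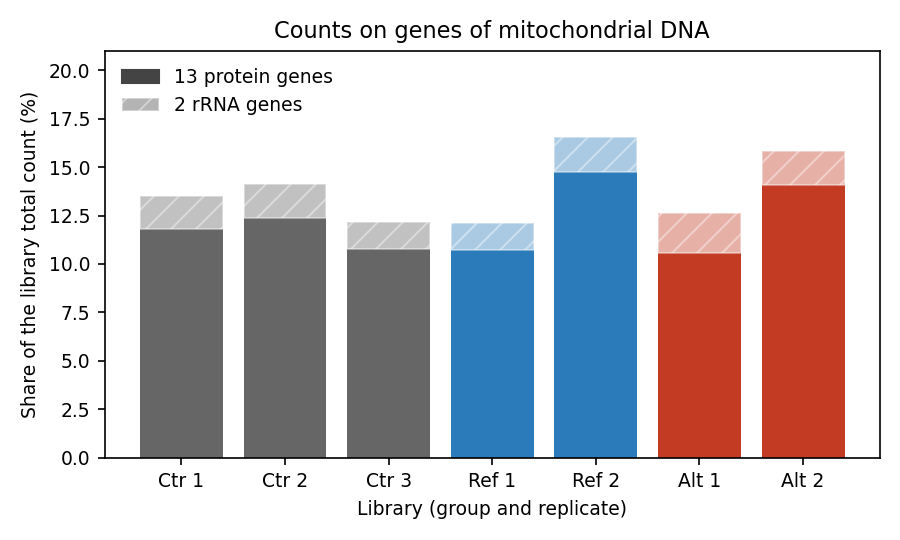
Stacked bars give, for each library, the percentage of all counts that fell on the 13 mt protein genes (solid) and the 2 mt rRNA genes (hatched), colored by group. The bars, which leave out the tRNA genes, end between 12.1% and 16.5%, and the groups overlap.

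Compared per length, in TPM, mt-Co1 stood first, and the protein genes fell into high and low sets along the DNA. mt-Co1, the catalytic subunit of complex IV, had the highest count of all genes in every library and a mean of 99929 TPM over the 7 libraries. It was followed by mt-Cytb, the only complex III subunit encoded here, at 49464 TPM, mt-Nd1 at 48180 TPM, mt-Nd6 at 36050 TPM, mt-Nd2 at 33722 TPM, mt-Nd5 at 30565 TPM and mt-Nd4 at 26260 TPM, the last 5 being complex I subunits. In the Ctr libraries mt-Nd5 ranged from 21074 to 27335 TPM and mt-Nd4 from 23693 to 26121 TPM, so that their order is within the spread between replicates. Neighbors changed places between libraries elsewhere too, since mt-Nd1 exceeded mt-Cytb in Ctr replicate 2 and in both Alt libraries, mt-Nd2 exceeded mt-Nd6 in Ctr replicate 1 and Ref replicate 1, and mt-Nd5 exceeded mt-Nd6 in Alt replicate 1. The mean order therefore separates mt-Co1 from the rest but not these neighbors from each other. The 16S rRNA gene mt-Rnr2 had 24407 TPM and the 12S rRNA gene mt-Rnr1 19342 TPM. These rRNA values come from libraries enriched for polyadenylated RNA.

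The remaining 6 protein genes were far lower, and all 6 lie inside the stretch matched by the nuclear copy. mt-Co2 and mt-Co3, the other complex IV subunits, had means of 2088 and 966 TPM. mt-Atp6, the proton channel subunit of complex V, had 2038 TPM, and its overlapping neighbor mt-Atp8 had 16.6 TPM. The complex I subunits mt-Nd4l and mt-Nd3 had 526 and 392 TPM. The 5 protein genes with no base in the copied stretch ranged from 30565 to 49464 TPM, and mt-Co1 and mt-Nd4, which lie partly inside it, were at 99929 and 26260 TPM. Together the 6 inside genes held 0.427% to 1.20% of the mt counts of a library. Whether reads shared with the nuclear copy were left out of the counts was not tested, since the sequencing reads were not analysed here. The values of these 6 genes are therefore relative to what was counted, not to what was transcribed.

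**Figure D2:**
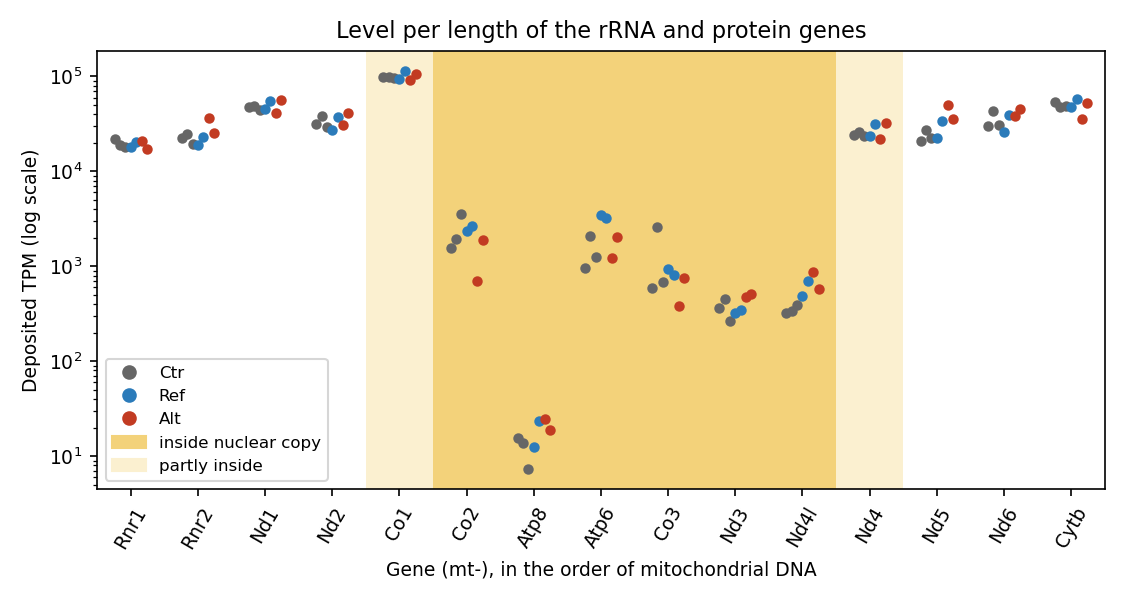
Each point is the deposited TPM (log scale) of 1 library for an mt rRNA or protein gene, in the order of mitochondrial DNA and colored by group, with shading for genes inside (dark) or partly inside (light) the stretch with a nuclear copy. The 6 genes inside the copy have means of 16.6 to 2088 TPM, and the other protein genes 26260 to 99929 TPM.

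The counts on the copy were themselves uneven. Gm28661, the copy of mt-Co2, had 5902, 5977 and 5485 counts in Ctr, 4739 and 6103 in Ref, and 1080 and 5105 in Alt. Gm29216, the copy of the end of mt-Co1, reached 14008 counts in Ctr replicate 3 against 578 to 2908 in the other libraries. Gm28437 and Gm28438, the copies of mt-Co3 and mt-Nd3, reached 6911 and 2719 counts in Ref replicate 2 against at most 2158 and 419 elsewhere. The libraries that stood apart were thus Alt replicate 1, Ctr replicate 3 and Ref replicate 2, respectively. Gm28439 (1413 to 3313 counts) and Gm10925 (2262 to 5542 counts) varied less. In all, the 6 copies held 0.0389% of the counts in Alt replicate 1 and 0.0789% to 0.139% in the other libraries.

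The tRNA genes took 0.170% to 0.345% of the mt counts. Like the rRNA values, these come from libraries enriched for polyadenylated RNA. Whether the reads came from finished tRNAs, from the precursor or from neighboring genes was not tested. Of the 22, 18 passed the filter on low counts, mt-Tf and mt-Tk were at 0 in every library, and mt-Ts1 and mt-Td had 2 and 1 counts over all 7 libraries. mt-Tk, mt-Ts1 and mt-Td lie wholly inside the stretch with the nuclear copy, as do mt-Tg (485 counts over all libraries) and mt-Tr (525). The limit on counting given for the 6 protein genes may hold for them as well, but for the most part their bases were not compared with the copy. The highest were mt-Tp, for proline, with 10592 counts over all libraries, and mt-Te with 10067, followed by mt-Tl1 (5757), mt-Tc for cysteine (5424), mt-Ty for tyrosine (5081) and mt-Tn for asparagine (4622). The lowest of those tested was mt-Tt, for threonine, with 57 counts in all and 0 in Ctr replicate 2 and Alt replicate 1. The tRNA genes on the minus strand received 3416 to 6910 counts per library, against 874 to 2169 for those on the + strand. Whether counting used the strand is not given in the sources used here. If it did not, reads of the precursor from the opposite strand would also be counted for these genes and for mt-Nd6. The split is therefore one of gene annotation and need not be one of transcripts.

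Relative to the whole transcriptome, no mt gene passed the adjusted threshold in any comparison. Normalised levels were tested gene by gene over all 17254 genes that passed the filter, 33 of them mt genes, with edgeR's quasi-likelihood test, with the Benjamini-Hochberg adjustment taken over the whole table. At an adjusted p of 0.05, 0 mt genes were called in Alt versus Ctr (background 0%), 0 in Alt versus Ref (background 0.0058%) and 0 in Ref versus Ctr (background 0%). Without Alt replicate 2 the counts were 10 in Alt versus Ctr and 8 in Alt versus Ref, where 18.3% and 14.4% of all genes were called. In simulated counts for Alt versus Ctr, the test called 78% of genes changed 4-fold and 44% of genes changed 2-fold. DESeq2's Wald test on the same genes called 7, 2 and 1 mt genes, where it called 8.5%, 3.82% and 0.0551% of all genes. edgeR without the filter on low counts called 10, 5 and 5, where it called 5.52%, 3.16% and 0.149% of all genes. At an unadjusted p of 0.05, 10 of the 33 mt genes had a higher level in Alt against Ctr and 0 a lower one, where 19.8% of all genes passed (9.45% of all genes higher and 10.3% lower). The median log2 fold change over the tested genes was 0.21 for the protein genes, 0.27 for the rRNA genes and 0.66 for the tRNA genes, against -0.03 over all genes tested. Leaving out Alt replicate 2 turned the protein median to -0.13, and leaving out Alt replicate 1 raised it to 0.51, so that its direction rested on 1 library.

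Among complex I subunits, mt-Nd5 was higher in Alt. mt-Nd5, a proton-pumping membrane subunit, had a normalised level of 11437, 14898 and 11526 CPM in Ctr, 11657 and 20054 CPM in Ref, and 26485 and 20952 CPM in Alt. Both Alt libraries lay above all others, Ref replicate 2 being close to Alt replicate 2. The log2 fold change of Alt versus Ctr was 0.91 (SE 0.22, unadjusted p = 0.00129, adjusted p = 0.12). Versus Ref it was 0.58 (SE 0.24, unadjusted p = 0.0336, adjusted p = 0.29), and it was 0.23 (unadjusted p = 0.30) without Ref replicate 1 and 0.41 (unadjusted p = 0.088) without Alt replicate 1, and missed the threshold without Ctr replicate 1 (unadjusted p = 0.054). The small subunit mt-Nd4l had 28.2, 30.0 and 32.3 CPM in Ctr, 40.6 and 67.5 CPM in Ref, and 74.1 and 54.9 CPM in Alt. Its Ctr libraries lay below both other groups, with log2 fold changes of 1.10 for Alt (SE 0.22, unadjusted p = 0.000336) and 0.84 for Ref (SE 0.22, unadjusted p = 0.00254, and 0.42 with unadjusted p = 0.11 without Ref replicate 2) versus Ctr, which share the Ctr libraries. The other 5 complex I genes did not pass an unadjusted p of 0.05 in Alt versus Ctr, with log2 fold changes from 0.12 for mt-Nd1 to 0.51 for mt-Nd3 (SE 0.24, unadjusted p = 0.0513).

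The complex III and IV genes did not pass in any comparison at this level. mt-Cytb had 18332, 16451 and 15704 CPM in Ctr, 15336 and 21690 CPM in Ref, and 11825 and 19490 CPM in Alt, and the groups overlapped (log2 fold change of Alt versus Ctr -0.10, SE 0.21). mt-Co1 ranged from 40790 to 57558 CPM over the 7 libraries (Alt versus Ctr 0.08, SE 0.17). mt-Co2 had 320.9, 392 and 677 CPM in Ctr, 451 and 589 CPM in Ref, and 137 and 416 CPM in Alt, with the lowest value in Alt replicate 1. mt-Co3 had 139 and 151 CPM in Ctr replicates 1 and 3 but 602 CPM in Ctr replicate 2, and 86.2 to 209 CPM in the 4 Ref and Alt libraries. The latter pair of genes is shared base for base with the nuclear copy.

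The complex V gene mt-Atp6 differed between Ref and the other groups. It had 194, 429 and 241 CPM in Ctr, 662 and 711 CPM in Ref, and 240.1 and 445 CPM in Alt. Both Ref libraries lay above all 5 others. Ref versus Ctr gave a log2 fold change of 1.25 (SE 0.31, unadjusted p = 0.00157, adjusted p = 1), where 3.14% of all genes passed an unadjusted p of 0.05. Alt versus Ref gave -1.003 (SE 0.34, unadjusted p = 0.0132), where 15.5% passed, and it no longer passed without Alt replicate 1 (-0.62, unadjusted p = 0.071), after a gene length correction (-0.64, unadjusted p = 0.053) or with DESeq2 (-0.97, unadjusted p = 0.066). Alt versus Ctr gave 0.25 (SE 0.31). The reads of mt-Atp6 match Gm10925 without a difference, and Gm10925 had 3477 to 5122 counts in Ctr, 4122 and 5542 in Ref, and 2262 and 5533 in Alt, the lowest being Alt replicate 1. Markers of oligodendrocytes, the myelinating glia, moved with the same contrast. Of 10, 8 were higher in Ref than in Ctr (2.19% of all genes) and 8 lower in Alt than in Ref (8.83% of all genes) at an unadjusted p of 0.05, none is at 0 in every library, and their summed level was 2423 to 3430 CPM in Ctr, 4096 to 5097 in Ref and 2373 to 2901 in Alt. Of 8 astrocyte markers, 3 were higher and 0 lower in Ref than in Ctr (median 0.32), beside 2.19% and 0.945% of all genes. In Alt versus Ref 0 were higher and 2 lower (median -0.22), beside 6.71% and 8.83% of all genes. The part of either list in the mt-Atp6 values was not tested.

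Of the rRNAs, mt-Rnr2 had 10496, 11805 and 8539 CPM in Ctr, 8499.9 and 11772 CPM in Ref, and 16660 and 12989 CPM in Alt. Both Alt libraries exceeded the other 5. The log2 fold change was 0.53 versus Ctr (SE 0.19, unadjusted p = 0.0165, adjusted p = 0.17) and 0.55 versus Ref (SE 0.21, unadjusted p = 0.0229, adjusted p = 0.26). Without Alt replicate 1 these were 0.34 (unadjusted p = 0.073) and 0.37 (unadjusted p = 0.069). The former was 0.41 (unadjusted p = 0.076) without Ctr replicate 3, and the latter 0.32 (unadjusted p = 0.18) without Ref replicate 1. With the replicate number as a block, mt-Rnr2 in Alt versus Ctr was 0.42 (unadjusted p = 0.080). mt-Rnr1 lay between 4793 and 6286 CPM in all libraries, with log2 fold changes of 0.02 (SE 0.16) versus Ctr and -0.00 (SE 0.18) versus Ref. A gene length correction turned the latter to 0.45 (unadjusted p = 0.033). The count ratio of mt-Rnr2 to mt-Rnr1 was 1.69 to 2.17 in Ctr, 1.76 and 1.87 in Ref, and 2.90 and 2.43 in Alt.

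Of the 10 genes with a higher level in Alt against Ctr, 7 were tRNA genes. Their counts do not tell a finished tRNA from its precursor. mt-Tl1 had 23.2, 29.9 and 26.8 CPM in Ctr, 38.5 and 50.1 CPM in Ref, and 77.1 and 64.5 CPM in Alt. The 3 groups did not overlap and followed the order Ctr, Ref, Alt. Its log2 fold change was 1.41 versus Ctr (SE 0.19, unadjusted p = 7.22e-06, adjusted p = 0.12) and 0.68 versus Ref (SE 0.21, unadjusted p = 0.00668, 0.49 with unadjusted p = 0.091 without Ref replicate 1), and for Ref versus Ctr it was 0.73 (SE 0.19, unadjusted p = 0.00213, 0.52 with unadjusted p = 0.051 without Ref replicate 2). mt-Te had 60.4, 66.6 and 37.4 CPM in Ctr, 52.6 and 75.5 CPM in Ref, and 128 and 121 CPM in Alt. Both Alt libraries lay well above the rest, with log2 fold changes of 1.19 versus Ctr (SE 0.23) and 0.96 versus Ref (SE 0.26). mt-Tw had 15.0, 13.8 and 4.41 CPM in Ctr, 8.76 and 12.1 CPM in Ref, and 35.3 and 26.8 CPM in Alt, with log2 fold changes of 1.49 (SE 0.40) and 1.57 (SE 0.45). Alt again stood above every other library.

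mt-Ta and mt-Tn differed between Ctr and both AAV-RNA groups instead. mt-Ta had 4.07, 1.67 and 3.34 CPM in Ctr, 11.3 and 12.3 CPM in Ref, and 11.8 and 9.09 CPM in Alt. The Ctr libraries lay below all others, and the log2 fold change was 1.78 for Alt (SE 0.35) and 1.95 for Ref (SE 0.35) versus Ctr and -0.17 for Alt versus Ref (SE 0.38). mt-Tn had 27.7, 17.6 and 21.9 CPM in Ctr, 37.0 and 43.7 CPM in Ref, and 36.9 and 58.9 CPM in Alt. Its Ctr values were the 3 lowest, with log2 fold changes of 1.10 (SE 0.24) and 0.85 (SE 0.24) versus Ctr. mt-Ty (0.84, SE 0.37) and mt-Th, for histidine (1.503, SE 0.64), completed the 7. The former no longer passed without Ctr replicate 1 (0.79), Ctr replicate 2 (0.50) or Alt replicate 2 (0.68), after a gene length correction (0.49) or with library totals alone (0.70). The latter no longer passed without Ctr replicate 1 (1.32), Ctr replicate 3 (1.60), Ref replicate 1 (1.4953) or Alt replicate 2 (1.47), after a gene length correction (1.21), with library totals alone (1.37) or with the replicate block (1.59). mt-Th rested on 12 to 69 counts per library. For most of the other tested tRNAs the SE of Alt versus Ctr was larger than the log2 fold change, as for mt-Tp (0.05, SE 0.40) and mt-Tc (0.02, SE 0.34).

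In Alt versus Ref, 7 mt genes were higher (6.71% of all genes) and 1 lower (8.83% of all genes) at an unadjusted p of 0.05. Beside mt-Rnr2, mt-Tl1, mt-Tw, mt-Nd5, mt-Te and mt-Atp6 these were mt-Nd3 (0.58, SE 0.26), with 37.2, 47.6 and 26.1 CPM in Ctr, 31.5 and 39.1 CPM in Ref, and 47.8 and 57.4 CPM in Alt, and mt-Tl2, the other leucine tRNA (1.91, SE 0.79), which rested on 16 to 175 counts per library. mt-Nd3 no longer passed without Ref replicate 1 (0.42), Ctr replicate 1 (0.576) or Alt replicate 2 (0.45), with library totals alone (0.48) or with the mt genes left out of the scaling (0.56), and mt-Tl2 without Ref replicate 1 (1.72), Ref replicate 2 (2.13) or Alt replicate 2 (1.34). mt-Te and mt-Tw passed under every alternative tried. In Ref versus Ctr, 7 were higher (2.19% of all genes) and 0 lower (0.945% of all genes), namely mt-Tl1, mt-Ta, mt-Tn, mt-Ty, mt-Atp6, mt-Nd4l and mt-Th. Of these, mt-Ty had a log2 fold change of 0.87 and no longer passed without Ref replicate 2 (0.54), Ctr replicate 1 (0.83) or Ctr replicate 2 (0.54), or after a gene length correction (0.67). mt-Th had 1.57 and no longer passed without Ref replicate 1 (0.92), Ctr replicate 1 (1.39) or Ctr replicate 3 (1.67), or with the replicate block (1.63). The median log2 fold change of the 13 protein genes was -0.02 in Alt versus Ref and 0.16 in Ref versus Ctr, against -0.04 and 0.01 over all genes tested.

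To separate the makeup of the mt transcripts from their amount, each mt gene was also tested relative to the mt total, with the summed mt counts in place of the library size. At an adjusted p of 0.05, edgeR's quasi-likelihood test then called 7 mt genes in Alt versus Ctr, where 3.27% of all genes were called, 2 in Alt versus Ref (1.23% of all genes) and 1 in Ref versus Ctr (0.029% of all genes). In Alt versus Ctr, mt-Nd5 rose by 0.71 on the log2 scale (SE 0.22, adjusted p = 0.0432), mt-Tl1 by 1.20 (SE 0.31, adjusted p = 0.0104), mt-Tw by 1.31 (SE 0.35, adjusted p = 0.0133), mt-Ta by 1.55 (SE 0.41, adjusted p = 0.0133) and mt-Te by 0.99 (SE 0.29, adjusted p = 0.0345). The complex IV genes mt-Co2 and mt-Co3 fell by 1.07 (SE 0.30, adjusted p = 0.0213) and by 1.32 (SE 0.31, adjusted p = 0.00449). In Alt versus Ref, mt-Tw rose by 1.51 (SE 0.39, adjusted p = 0.0196) and mt-Atp6 fell by 1.16 (SE 0.32, adjusted p = 0.0384). In Ref versus Ctr, mt-Ta rose by 1.82 (SE 0.41, adjusted p = 0.0318). The p-values of this fit relative to the mt total are those of a normal distribution for the fold change over its SE. A gene's own spread between replicates thus had next to no weight, and the calls look firmer than 7 libraries allow. For mt-Co3 in Alt versus Ctr the SE was 0.31 here and 0.55 in the test of levels. At an unadjusted p of 0.05, 7 mt genes were higher and 2 lower in Alt versus Ctr, where 17.9% of all genes passed (2.47% higher, 15.4% lower). In Alt versus Ref 5 were higher and 3 lower, where 12.3% passed (2.07% higher, 10.2% lower), and in Ref versus Ctr 5 were higher and 2 lower, where 1.39% passed (0.649% higher, 0.742% lower).

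**Figure D3:**
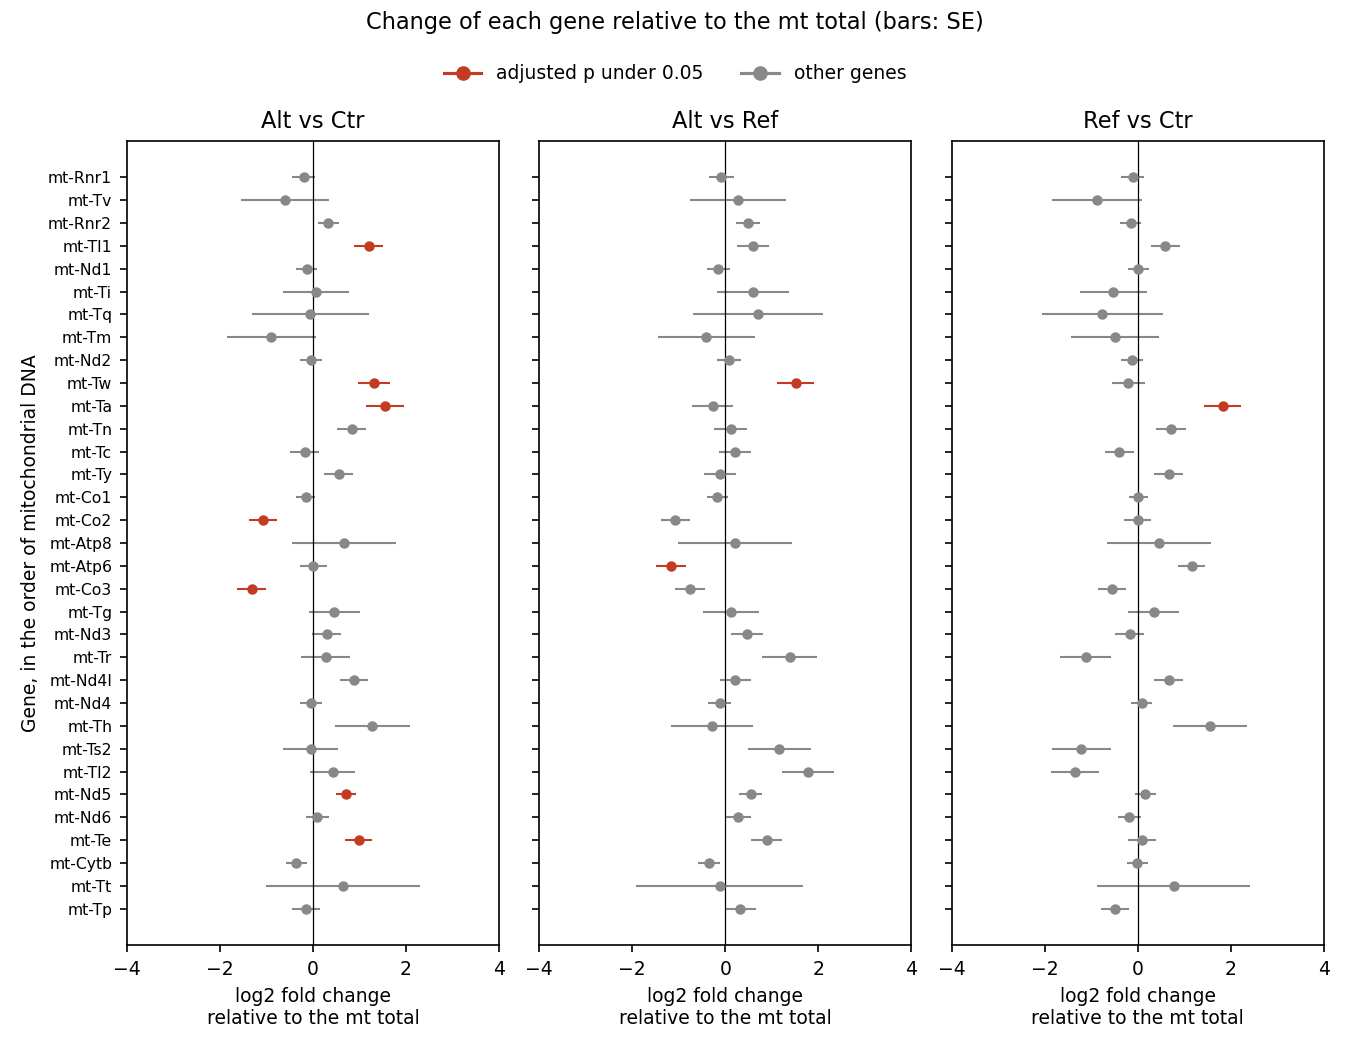
Points give the log2 fold change of each of 33 mt genes relative to the mt total with its SE, in the order of mitochondrial DNA, for Alt versus Ctr, Alt versus Ref and Ref versus Ctr. Red marks an adjusted p under 0.05, which 7, 2 and 1 genes reached.

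Behind these calls, mt-Nd5 took 8.77%, 10.7% and 9.82% of the mt counts in Ctr, 10.05% and 11.8% in Ref, and 19.3% and 12.7% in Alt. The 2 Alt libraries were the highest but lay far apart, and without Alt replicate 1 the log2 difference from Ctr was 0.37 (adjusted p = 0.66). mt-Co3 took 0.107%, 0.432% and 0.129% in Ctr, 0.180% and 0.122% in Ref, and 0.0628% and 0.116% in Alt. Its fall rested on Ctr replicate 2, without which it was -0.40 (adjusted p = 0.66). mt-Co2 took 0.246%, 0.281% and 0.577% in Ctr, 0.389% and 0.347% in Ref, and 0.0994% and 0.251% in Alt. Without Ctr replicate 3 its difference from Ctr was -0.59 (adjusted p = 0.53), and without Alt replicate 1 it was -0.55. Without Alt replicate 1, 0 mt genes were called in Alt versus Ctr by edgeR (6 at an unadjusted p of 0.05), and without any 1 of the other libraries but Alt replicate 2 between 1 and 2 were called. Without Alt replicate 2, 8 were called, beside 6.5% of all genes. The calls of mt-Tw and mt-Atp6 in Alt versus Ref both ended without Alt replicate 1 (1.14 and -0.88), Ref replicate 1 (1.55 and -0.92), Ref replicate 2 (1.47 and -1.36), Ctr replicate 1 or Ctr replicate 3, and that of mt-Ta in Ref versus Ctr without any 1 of the Ctr or Ref libraries, where it was between 1.501 and 2.07.

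The counts of the protein genes were also summed by complex. Complex I, with 7 genes, held 43.6%, 47.7% and 43.9% of the mt protein counts in Ctr, 43.9% and 46.6% in Ref, and 53.6% and 50.4% in Alt. Both Alt libraries exceeded the other 5, and the slope over Ctr, Ref and Alt was 3.26 points per step (exact permutation p = 0.0524). Within it, mt-Nd5 alone held 10.1%, 12.2% and 11.1% in Ctr, 11.4% and 13.3% in Ref, and 23.1% and 14.3% in Alt. With mt-Nd5 left out of both the complex and the total, the other 6 genes held 37.3%, 40.4% and 36.8% in Ctr, 36.7% and 38.4% in Ref, and 39.6% and 42.1% in Alt, and Alt overlapped with Ctr. Complex III held 16.2%, 13.5% and 15.1% in Ctr, 15.0% and 14.3% in Ref, and 10.3% and 13.3% in Alt (slope -1.49, exact permutation p = 0.0571). Complex IV held 40.0%, 38.5% and 40.8% in Ctr, 40.5% and 38.6% in Ref, and 35.9% and 36.0% in Alt, with both Alt libraries below the rest (slope -1.79, exact permutation p = 0.0429). Complex V, with mt-Atp6 and mt-Atp8, held 0.172% to 0.353% in Ctr, 0.647% and 0.471% in Ref, and 0.211% and 0.304% in Alt (slope 0.0203, exact permutation p = 0.852), Ref being highest. Both complex V genes, and mt-Co2 and mt-Co3 of complex IV, lie inside the stretch with the nuclear copy. The shares are therefore relative to what was counted, and that of complex IV is nearly all mt-Co1. None of the 7 slopes tested passed after adjustment, with Benjamini-Hochberg values of 0.133 for complexes I, III and IV, and the shares of the complexes add up to a whole and are not independent. The total behind every share includes mt-Nd5, so that a higher mt-Nd5 count lowers the shares of the other complexes. Shares of complexes III, IV and V without mt-Nd5 were not calculated. Between Alt and Ctr the difference was 6.90 points for complex I and -3.78 points for complex IV, each with an exact permutation p of 0.1, the smallest possible. The rRNA share of the mt counts was 12.8%, 12.4% and 11.4% in Ctr, 11.5% and 10.6% in Ref, and 16.3% and 11.1% in Alt (slope 0.643, exact permutation p = 0.59), and only Alt replicate 1 stood out.

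**Figure D4:**
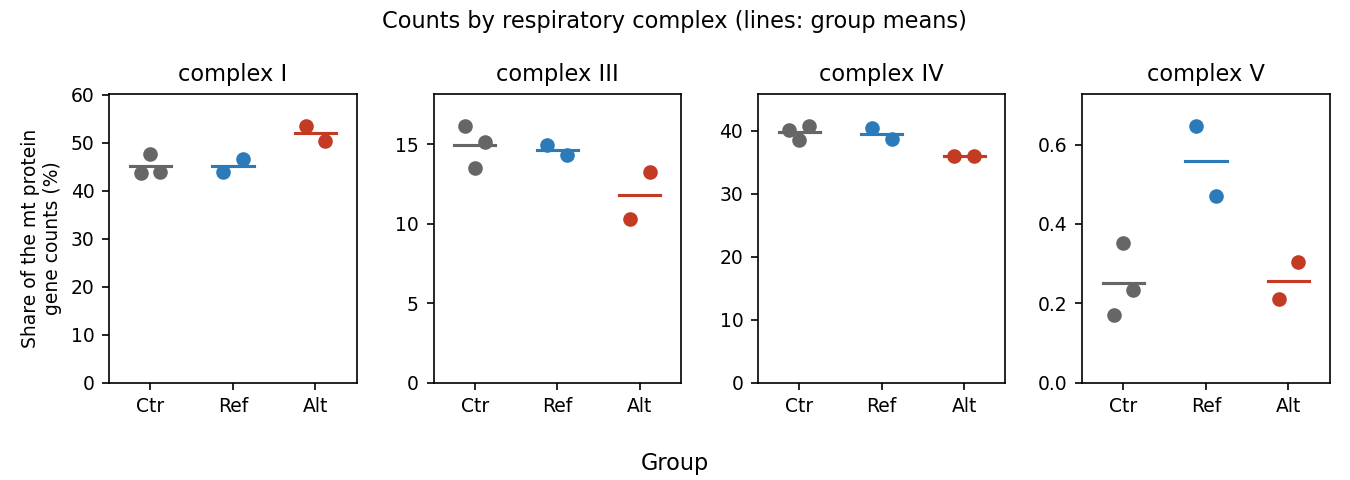
Points give, for each library, the share of the mt protein gene counts that fell on the genes of complexes I, III, IV and V, with a line at the group mean and an axis from 0 in each panel. Complex I is at 50.4% and 53.6% in the Alt libraries and at most 47.7% elsewhere, and complex IV at 35.9% and 36.0% against at least 38.5%. The total behind every share includes mt-Nd5, and both complex V genes lie inside the stretch with the nuclear copy.

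The nuclear genes of the same complexes were mostly lower in the Alt libraries. Of 78 nuclear oxidative phosphorylation (OXPHOS) genes, all tested, 58 were lower and 0 higher in Alt than in Ctr at an unadjusted p of 0.05, where 10.3% of all genes were lower, and their median log2 fold change was -0.82. Against Ref, 50 were lower in Alt, where 8.83% of all genes were, and 0 higher (median -0.74), and in Ref versus Ctr 2 were lower, where 0.945% of all genes were, and 0 higher, with a median of -0.04. No gene of the list passed an adjusted p of 0.05. The 7 mt protein genes not inside the nuclear copy had medians of 0.19, -0.02 and 0.16 in the same comparisons. The 6 inside it had a median of 0.38 in Alt versus Ctr, with 4 values above 0 and 2 below, mt-Co2 (-0.75, SE 0.40) and mt-Co3 (-1.10, SE 0.55), neither of which passed an unadjusted p of 0.05. Their median was -0.18 in Alt versus Ref and 0.40 in Ref versus Ctr over the same 6 genes. The difference between the nuclear and mt lists was not tested. Set against the Ctr mean, the nuclear list had a median log2 difference of 0.20, -0.12 and -0.05 in Ctr, 0.04 and -0.10 in Ref, and -1.28 and -0.37 in Alt. For the 7 mt protein genes it was -0.00, 0.12 and -0.12 in Ctr, -0.11 and 0.39 in Ref, and -0.12 and 0.47 in Alt. For the nuclear list both Alt libraries were thus below the Ctr range. For the mt list Alt replicate 1 was level with the lowest Ctr library and Alt replicate 2 above all of them. The nuclear list depended on Alt replicate 1, without which 26 genes were lower (median -0.39) beside 4.46% of all genes, and on Ctr replicate 1, without which 38 were lower beside 6.06% of all genes. Against Ref, 19 were lower without Alt replicate 1, 26 without Ref replicate 1 and 29 after a correction for gene length, beside 4.4%, 2.88% and 5.6% of all genes.

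**Figure D5:**
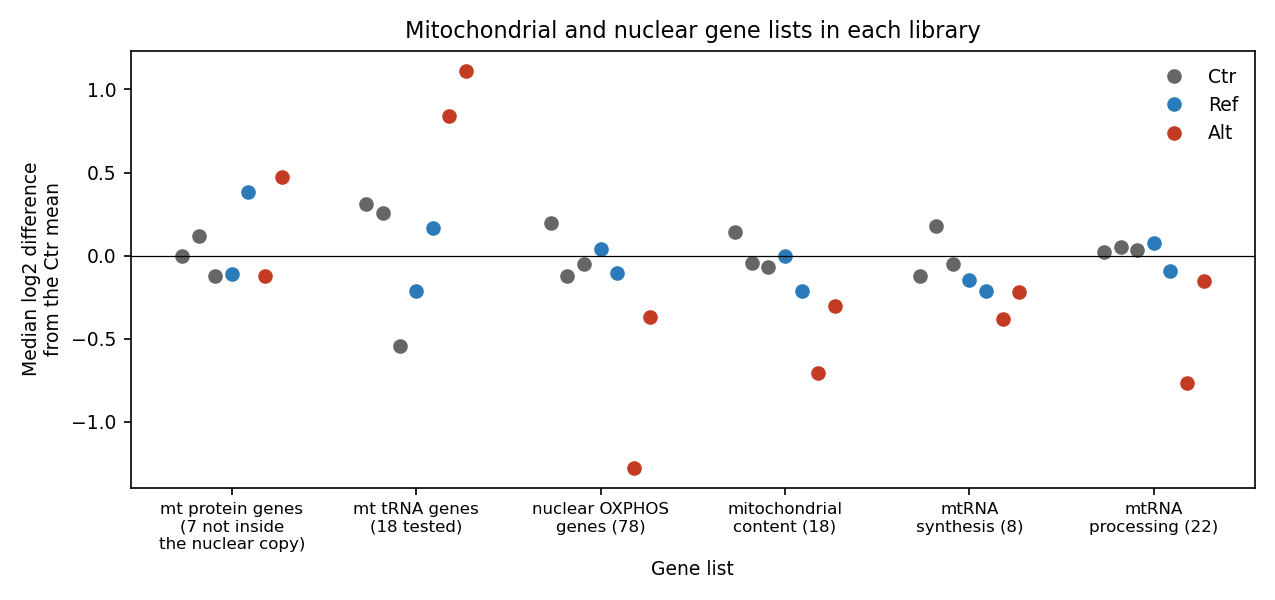
Each point is the median, over a gene list, of the log2 difference of 1 library from the Ctr mean, colored by group. The nuclear OXPHOS list is at -1.28 and -0.37 in the Alt libraries, while the 7 mt protein genes not inside the nuclear copy are at -0.12 and 0.47.

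By complex, 24 of 37 nuclear genes of complex I, 2 of 4 of complex II, 8 of 9 of complex III, 11 of 11 of complex IV and 13 of 17 of complex V were lower in Alt than in Ctr at an unadjusted p of 0.05, where 10.3% of all genes were lower. In every complex the median log2 difference from Ctr was larger in Alt replicate 1 than in Alt replicate 2. It was -1.41 and -0.32 for complex I, and -1.55 and -0.50 for complex IV. In complex I the 4 genes with the smallest p were Ndufa3 (-2.57, SE 0.52), Ndufb7 (-1.37, SE 0.28), Ndufa6 (-1.14, SE 0.25) and Ndufa10 (-0.73, SE 0.17), all accessory subunits. Ndufa10 had 81.9, 71.3 and 79.5 CPM in Ctr, 78.5 and 73.4 CPM in Ref, and 40.9 and 52.3 CPM in Alt, so that Alt lay below every other library. Complex II, which has no mt subunit, was led by Sdhc (-0.57, SE 0.20) and Sdhd (-0.59, SE 0.23), the membrane anchors, while Sdhb (-0.29, SE 0.17) and Sdha (-0.30, SE 0.18) did not pass. Complex III was led by Uqcr11, Uqcrh (-1.07, SE 0.23), Uqcrc1 (-0.58, SE 0.18) and the heme protein Cyc1 (-0.73, SE 0.24). Uqcr11 had 10.3, 6.89 and 8.87 CPM in Ctr, 11.3 and 8.38 CPM in Ref, and 0 and 1.115 CPM in Alt. Complex IV was led by Cox5a (-1.02, SE 0.25), Ndufa4 (-0.79, SE 0.20), Cox6c (-1.04, SE 0.28) and Cox7a2 (-0.69, SE 0.19), and complex V by Atp5o (-1.55, SE 0.29), Atp5md (-1.48, SE 0.29), Atp5h (-1.03, SE 0.22) and Atp5pb (-0.80, SE 0.22).

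The genes that act on mitochondrial DNA and RNA are to be read against the 10.3% of all genes that were lower and the 9.45% that were higher in Alt versus Ctr. Of 8 genes of mitochondrial transcription, 1 was lower in Alt than in Ctr at an unadjusted p of 0.05, namely Tfb2m (-0.79, SE 0.26), which helps the mitochondrial RNA polymerase open its promoters. Tfb2m had 23.5, 27.2 and 17.7 CPM in Ctr, 14.3 and 18.05 CPM in Ref, and 10.9 and 15.3 CPM in Alt, which lay below Ctr but overlapped with Ref. The other 3 with the smallest p did not pass, namely the termination factor family members Mterf2 (-0.60, SE 0.34) and Mterf3 (-0.39, SE 0.23) and Tfam (-0.36, SE 0.21), which packages the DNA and starts transcription. Of 22 genes that process or modify mitochondrial RNA, 4 were lower and 1 higher. The lower ones were Rpusd4 (-1.56, SE 0.64), a pseudouridine synthase, Hsd17b10 (-1.19, SE 0.49), a subunit of the mitochondrial RNase P that cuts tRNA 5′ ends, Ptcd1 (-0.64, SE 0.28), and Ptcd2 (-0.60), which falls outside the naming rule and was added after its value was seen. The higher one was Fastkd2 (0.55, SE 0.23), which acts in assembly of the mitochondrial ribosome. Of 7 genes of mitochondrial RNA stability and decay tested, 0 were higher or lower by edgeR at an unadjusted p of 0.05, with Rexo2 (-0.37, SE 0.22), Pde12 (0.40, SE 0.27), Angel2 (0.14, SE 0.16) and Lrpprc (-0.16, SE 0.18) having the smallest p.

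Of 13 genes of mitochondrial DNA replication and packaging, 1 was higher, the ribonucleotide reductase subunit Rrm2b (0.41, SE 0.17), and Tfam, Ssbp1 (-0.53, SE 0.34) and Dguok (-1.06, SE 0.68) did not pass. Of 18 nuclear genes for abundant proteins of the mitochondrial membranes, import and matrix, 11 had lower and 1 higher levels in Alt against Ctr (median -0.53), where 10.3% of all genes were lower and 9.45% higher. They were led by the malate dehydrogenase Mdh2 (-0.83, SE 0.22), the prohibitin Phb2 (-0.67, SE 0.20), the ADP/ATP carrier Slc25a5 (-0.61, SE 0.19) and the import pore Tomm40 (-0.88, SE 0.28). Their summed level was 2433 to 2734 CPM in Ctr, 2366 to 2518 in Ref and 1904 to 2263 in Alt. In Ref versus Ctr none of these 18 genes passed by edgeR at an unadjusted p of 0.05, where 3.14% of all genes did.

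Lists of nuclear RNAs and of cell type markers were measured beside the mt genes, and their counts are also to be read against the 9.45% of all genes that were higher and the 10.3% that were lower in Alt versus Ctr. Of 8 RNAs that stay largely in the nucleus, 2 were higher and 1 lower in Alt versus Ctr at an unadjusted p of 0.05. Malat1 had 76.8, 102 and 60.8 CPM in Ctr, 68.7 and 74.4 CPM in Ref, and 259.8 and 109.6 CPM in Alt, Kcnq1ot1 had 61.6 CPM in Alt replicate 1 and 9.24 to 19.5 CPM in the others, and Neat1 had 2.93 and 6.53 CPM in Alt and 7.65 to 11.9 CPM in the others. The summed neuron markers were at 7364 to 7673 CPM in Ctr, 6819 to 7574 in Ref and 8087 to 8913 in Alt. Of the 10 genes, 2 were higher and 1 lower, with 5 log2 fold changes above 0, 5 below and a median of 0.02. Abundant genes weigh most in the sum, such as Map2, named after its values were seen, with 1244 to 1686 CPM in Ctr and 2740 and 1770 in Alt. The summed astrocyte markers were at 5424 to 7039 CPM in Ctr, 7410 to 8948 in Ref and 8121 to 11370 in Alt, with 1 of 8 higher and 2 lower. The astrocyte sum was set by the glutamate transporter gene Slc1a2, the 1 higher gene, with 3484 to 4827 CPM in Ctr, 4894 and 6469 in Ref, and 9528 and 5964 in Alt. Without it the sum was 1944 to 2215 CPM in Ctr, 2525 and 2485 in Ref, and 1859 and 2162 in Alt, and S100b (-0.68, SE 0.21) and Aldoc (-0.43, SE 0.20) were the 2 lower genes, all 3 named after their values were seen. Of 8 microglia markers 1 was higher and 3 were lower in Alt versus Ctr (median -0.37), and 0 were higher and 3 lower in Alt versus Ref (median -0.37), where 6.71% of all genes were higher and 8.83% lower. The 3 lower versus Ctr, named after their values were seen, were the complement genes C1qa (-1.09, SE 0.29), C1qb (-0.81, SE 0.27) and C1qc (-0.65, SE 0.23). The 1 higher was Cx3cr1 (0.36, SE 0.15). The rest did not pass, namely Aif1 (-0.72, SE 0.41), Csf1r (0.12, SE 0.15), P2ry12 (-0.09, SE 0.16) and Tmem119 (-0.10, SE 0.19). The summed list was at 370.4 to 431 CPM in Ctr, 431 to 441 in Ref and 373 to 399.9 in Alt. Of 6 endothelial markers 1 was higher and 0 lower in Alt versus Ctr. Of 10 oligodendrocyte markers 2 were lower and 0 higher in Alt versus Ctr. The part of these differences in the mt values was not tested.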

How the data were processed

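PFC RNA of 7 libraries (3 Ctr, 2 Ref, 2 Alt, grouped by sample title) was enriched for polyadenylated RNA before sequencing. The authors deposited read counts per gene without normalization, with TPM and FPKM made from those counts and the gene's length. The submitters' processing notes name STAR, featureCounts and the build hg19, although the genes are mouse genes, and treatment of strand and of reads with several matches is not given in the sources used here. FPKM were only checked against the counts. Deposited TPM served to compare genes.

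Counts were tested in R 4.3.3 with edgeR 4.0.16 (TMM, filterByExpr, glmQLFit, glmQLFTest), all 7 libraries sharing 1 spread, with Benjamini-Hochberg adjustment over all 17254 genes tested. A normalised level is CPM after TMM. For the makeup of mt transcripts the summed mt counts replaced the library size, with no TMM factor. Shares per library were tested by exact permutation in Python 3.11.15. Libraries held 16655697 to 20750857 counts, which sets the precision of low genes. Tests were tried on simulated data. Alternatives covered DESeq2 1.42.0, normalization, filter, gene length (loess span 0.3), denominators, the replicate number and leaving out each library. All 13 protein and 2 rRNA genes, tRNA genes with 10 counts in a library, the 4 genes of each pathway list with the smallest p in Alt versus Ctr and the nuclear copies are named. The members and lists were chosen with earlier results of these data known. Sequences came from GENCODE M21, in which all 37 mt genes had the start, end and strand of the deposited table.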

Additional observations from a re-analysis of the deposited data

How the results depend on the processing

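The adjusted calls of mt levels, 0 in each comparison, rose to 10 (Alt versus Ctr), 5 (Alt versus Ref) and 5 (Ref versus Ctr) without the filter on low counts and to 7, 2 and 1 with DESeq2's Wald test, and leaving out 1 library gave 0 to 10, 0 to 8 and 0 to 0, the highest without Alt replicate 2. At an unadjusted p of 0.05, no filter gave 13 in Alt versus Ref and 12 in Ref versus Ctr, and leaving out 1 library gave 9 to 15, 4 (without Ref replicate 1) to 10, and 4 (without Ref replicate 2) to 10. The median log2 fold change of the protein genes ran from -0.13 (without Alt replicate 2) to 0.51 (without Alt replicate 1), from -0.28 (without Ref replicate 1) to 0.33 (without Ref replicate 2), and from -0.12 (without Ref replicate 2) to 0.39 (without Ref replicate 1). A gene length correction moved that of Alt versus Ref to 0.38 and turned mt-Rnr1 to 0.45 (unadjusted p = 0.033). Library totals without TMM factors moved the median of all genes to -0.16 in Alt versus Ctr and -0.14 in Alt versus Ref.

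Calls relative to the mt total ran from 0 (without Alt replicate 1) to 8 (without Alt replicate 2) in Alt versus Ctr, 0 to 6 (without Alt replicate 2) in Alt versus Ref and 0 to 2 in Ref versus Ctr. At an unadjusted p of 0.05 they ran from 6 to 10, 3 to 12 and 2 to 10. Without the filter 1 was called in Alt versus Ref and 0 in Ref versus Ctr, and with the protein counts as library size 1 in Alt versus Ref. Mt genes outside the copy as library size, chosen after seeing the data, gave 5, 3 and 1, with mt-Nd5 (0.60) and mt-Te (0.89) no longer called in Alt versus Ctr. mt-Nd5 was also not called without the filter (0.71, adjusted p = 0.28).

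Replicate numbers are shared by the groups, but same-numbered libraries did not deviate together (correlations from -0.0984 to 0.0702), so the numbers were not used as pairs. With the replicate block, 3 mt genes were called relative to the mt total in Alt versus Ctr and 0 in Ref versus Ctr, and mt-Rnr2 (Alt versus Ctr) and mt-Th (Alt and Ref versus Ctr) lost an unadjusted p of 0.05. Under the block the complex IV slope was -1.63 (exact permutation p = 0.222) and the complex V slope -0.00248 (exact permutation p = 1).

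Leaving out 1 library moved the slope of the mt share from -0.0327 (without Alt replicate 2) to 1.25, of the protein share from -0.208 (without Alt replicate 2) to 1.199, of the rRNA share from -0.666 (without Alt replicate 1) to 1.43, of complex I from 2.16 to 4.10, of complex III from -1.92 to -0.716, of complex IV from -2.21 to -1.53 and of complex V from -0.0178 (without Ctr replicate 1) to 0.0819. Without Ctr replicate 2 the complex I and complex III slopes each had an exact permutation p of 0.0222. Complex IV no longer passed 0.05 without Ctr replicate 1 (-1.82), Ctr replicate 3 (-1.63), Ref replicate 2 (-1.80), Alt replicate 1 (-1.53) or Alt replicate 2 (-1.58), nor per gene length (-1.30, exact permutation p = 0.0952). Without Ctr replicate 3 the complex V slope was -0.00248. The causes of these changes were not tested. Depth limits the low tRNA genes, and 2 libraries in Ref and in Alt limit every comparison.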
